A study of Oryza sativa with 24 samples.

Results

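A cluster of 7 seed allergen genes on chromosome 7 of rice, described as alpha-amylase/trypsin inhibitors, was followed in the developing grain of an accession that resists pre-harvest sprouting and of one that sprouts readily. The members were chosen as a list of gene IDs (OS07G0213800, OS07G0214100, OS07G0214300, OS07G0214600, OS07G0215500, OS07G0216600 and OS07G0216700), and they are 7 of 17780 genes in the tables. All 7 were present in the 3 endosperm tables and in the 3 embryo tables. The groups were Jowoon, the resistant accession, and Gopum, the susceptible one, both wild-type japonica rice grown in the field, each sampled at 3 stages of maturation, 30, 45 and 60 DAH (days counted from heading). RNA came from endosperms and embryos pooled over several plants, and the labels give 2 libraries for each of the 12 groups of accession, tissue and stage. The question of the study was which genes differ between the accessions as the seed matures.

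The rice seed allergens of this kind are small, cysteine-rich storage-type proteins that accumulate in the endosperm while the grain fills. Their relatives in wheat and barley bind the alpha-amylases of insects or inhibit trypsin-like proteases, and the rice proteins are best known because they cause allergic reactions in some people. Alpha-amylase itself is the enzyme that breaks down starch in the germinating grain. None of the 17780 IDs could be matched to the RefSeq gene table used here, so no gene name is given for a single member, and the planned lists of related genes by annotation could not be drawn up.

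For 1 member, OS07G0216600, the study's supplementary tables describe the product as a bifunctional trypsin/alpha-amylase inhibitor and list a predicted target site of the microRNA osa-miR1428e-3p in the 5′ untranslated region of its transcript. The site and the microRNA are shown because they are the only sequences for a member that were found in the sources used here. They run 5′ to 3′, with the bases that can pair in capitals and the unpaired ones in lower case.
osa-miR1428e-3p: uAAGaUaAUGCCAUGAAUuUG
site in OS07G0216600: CAuAUUCAUGGCAUcAgCUUc
Of the 21 positions, 17 were Watson-Crick pairs and 4 were unpaired. This is a match of letters in the reference, and the level of the microRNA was not analysed here. The study describes its small RNA sequencing for embryos, and it predicted targets for the microRNAs that differed there between the accessions. The stage and direction for this microRNA are not reported here.

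Each table gives, for a gene, a log2 fold change of Jowoon over Gopum, a mean log2 CPM (reads of the gene scaled to library size) over the libraries of the tissue, a p-value and a false discovery rate (FDR), all as deposited. Values per library were not analysed here, so depth is unknown and no spread between libraries can be given. In its place, an implied standard error (SE) was taken as the size of the fold change over the normal quantile of its p. Differentially expressed genes (DEGs) are those that differed 2-fold or more with an FDR not above 0.05, the limits of the study. In the endosperm at 30 DAH, 0 of 14049 genes were DEGs. In the authors' test 351 of them (2.50%) had an unadjusted p under 0.05, against 11.4% at 45 DAH and 8.73% at 60 DAH. The endosperm table of 30 DAH stood apart. Of 58 genes that were DEGs in the same direction, by 8-fold or more, at each of the 3 embryo stages, 4 differed at least 2-fold in the same direction in the endosperm at 30 DAH, against 56 at 45 DAH and 56 at 60 DAH. No member is among the 58 genes, and results that rest on the endosperm at 30 DAH are named as such.

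All 7 genes gave far more reads in the endosperm than in the embryo, where fewer cells of a type and less RNA per cell cannot be told apart. OS07G0213800 had a mean log2 CPM of 13.42 in the endosperm, against 5.27 in the embryo. OS07G0214300 followed with 12.96 in the endosperm and 5.19 in the embryo, and OS07G0214600 had 12.67 in the endosperm and 4.83 in the embryo. These 3 genes ranked 16th, 19th and 20th by reads among the 14049 genes of the endosperm tables. OS07G0215500 had 11.58 in the endosperm and 4.70 in the embryo, and OS07G0216700 had 10.97 in the endosperm and 3.09 in the embryo. The lowest were OS07G0214100, with 9.53 in the endosperm and 1.29 in the embryo, and OS07G0216600, with 8.64 in the endosperm and 1.37 in the embryo. Even OS07G0216600, the lowest, ranked 156th in the endosperm, whereas the ranks in the embryo ran from 4396 to 16101 of 16897 genes. These values are not divided by transcript length, so their order is an order of reads and not of transcripts.

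The difference in mean log2 CPM, endosperm minus embryo, lay between 6.89 (OS07G0215500) and 8.25 (OS07G0214100), with a median of 7.84. Over all 13166 genes found in both tissues the median was -1.32, and 0.372% of them reached the 6.89 of the lowest member. Together the 7 genes took 3.07% of the summed CPM of the endosperm tables and 0.0139% of that of the embryo tables. The tissues were normalized separately by the authors, and no test was made on these means. Of 4 IDs listed as endosperm markers, 3 glutelin genes had differences of 7.56, 7.60 and 6.96, about as large as those of the members, and the gene for granule-bound starch synthase was absent from the embryo tables. The part in the members' embryo values of endosperm carried over with the embryos was not tested. Of 3 IDs listed as embryo markers, 2 oleosin genes were nearly as high in the endosperm, with differences of -0.06 and -0.63, and a gene for a late embryogenesis abundant protein had -3.16.

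**Figure D1:**
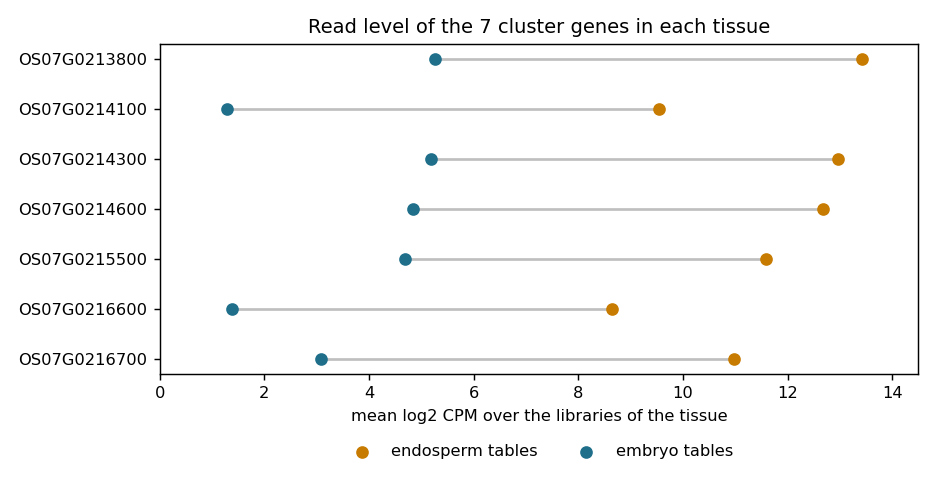
Mean log2 CPM of each of the 7 genes (rows) over all libraries of a tissue, with endosperm in orange and embryo in blue; a point is the authors' mean, so no error bar can be drawn. Every gene lies between 8.64 and 13.42 in the endosperm and between 1.29 and 5.27 in the embryo.

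Between the accessions, OS07G0214100 parted from the rest of the cluster. Its log2 fold changes in the endosperm were -1.44, 7.47 and 8.39 at 30, 45 and 60 DAH, so that it was far higher in Jowoon than in Gopum at the last 2 stages. The implied SE was 1.04 at 45 DAH (FDR 1.50e-09) and 1.08 at 60 DAH (FDR 2.11e-11). At 30 DAH the difference was not called (FDR 1). Of the 14049 endosperm genes, 22 had a fold change at least as large at 45 DAH and 11 at 60 DAH, this gene included. The mean log2 CPM is given over both accessions and all stages. Whether Gopum had any reads of the gene at 45 or 60 DAH cannot be read from it, and a fold of this size is not taken as a measured ratio. At 30 DAH the value of -1.44 puts the libraries labelled Gopum above those of Jowoon, though it was not called. How reads that map to several copies of the family were counted is not given in the sources used here.

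In the embryo the log2 fold changes of OS07G0214100 were also above 0, at 1.92 at 30 DAH, 2.54 at 45 DAH and 5.05 at 60 DAH. Only the value at 30 DAH was a DEG (FDR 0.0263), whereas 45 DAH (FDR 0.0576) and 60 DAH (FDR 0.0605) fell just short. Its mean log2 CPM in the embryo was only 1.29, and the implied SE was 0.67, 1.05 and 2.26 at the 3 stages. No pair of embryo stages was called as different for this gene (adjusted p of 0.36 to 0.77).

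The 6 other members had smaller log2 fold changes in the endosperm. At 30 DAH their log2 fold changes lay between -0.79 and -0.05, at 45 DAH between -1.20 and 1.32, and at 60 DAH between -0.35 and 1.79. The implied SE of these values lay between 0.45 and 0.99, and 1 of the values was called. It belonged to OS07G0216600. Its log2 fold changes were -0.05, 0.46 and 1.79 at 30, 45 and 60 DAH. The value at 60 DAH had an implied SE of 0.48 (FDR 0.0190), and it was not called at an FDR of 0.01 or at a fold change of 4.

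OS07G0213800, the member with the most reads, had endosperm values of -0.79, 1.32 and 1.42 at 30, 45 and 60 DAH, with 95% intervals of -0.17 to 2.80 at 45 DAH and -0.07 to 2.91 at 60 DAH. Both intervals reach below 0, and neither value was called (FDR 0.51 and 0.61). OS07G0214300 had -0.44, 0.31 and 0.16, and OS07G0214600 had -0.59, 0.59 and 0.42. OS07G0215500 had -0.25, -0.57 and 0.56 at the 3 stages. For this gene, with the smallest implied SE of the cluster in the endosperm, the 95% intervals ran from -1.12 to 0.63, from -1.45 to 0.30 and from -0.32 to 1.43, so that log2 differences above 1.43 or below -1.45 lay outside all 3. OS07G0216700 had -0.07, -1.20 and -0.35, and was the only member below 0 at all 3 endosperm stages.

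Counted over the cluster, the endosperm had 0 of 7 members called at 30 DAH, where 0% of all genes were called and 0 members had an unadjusted p under 0.05 in the authors' edgeR test. At 45 DAH 1 of 7 was called, against 1.61% of all genes (0.826% higher and 0.783% lower in Jowoon). At 60 DAH 2 of 7 were called, against 1.53% of all genes (0.783% higher and 0.747% lower in Jowoon). The median log2 fold change of the members was -0.44, 0.46 and 0.56 at 30, 45 and 60 DAH, beside -0.05, 0.07 and 0.08 over all endosperm genes. All 7 members were below 0 at 30 DAH, 5 were above 0 at 45 DAH and 6 at 60 DAH. With centering within bins of expression level, OS07G0216600 and OS07G0216700 lay just above 0 at 30 DAH, and OS07G0214300 just below 0 at 45 DAH. The 3 glutelin marker genes had the opposite sign to the members' median at each stage. In the endosperm they had 0.88 to 0.95 at 30 DAH, -1.81 to -1.40 at 45 DAH and -0.51 to -0.36 at 60 DAH. At 45 DAH, OS01G0762500 (-1.81, FDR 0.0139) and OS10G0400200 (-1.46, FDR 0.0261) were DEGs, and OS03G0427300 (FDR 0.133) was not. None of the glutelin genes was called at 30 or 60 DAH (FDR 0.832 or above). The fourth endosperm marker, OS06G0133000 for granule-bound starch synthase, had -0.14, -1.20 and -0.34, so that its sign at 30 DAH was that of the members' median.

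In the embryo the mean log2 CPM of the members lay between 1.29 and 5.27. There, 1 of 7 was called at 30 DAH, against 17.6% of all genes (8.3% higher and 9.34% lower in Jowoon). At 45 DAH 1 of 7 was called, against 21.5% (10.9% higher and 10.6% lower in Jowoon), and at 60 DAH 0 of 7, against 35.3% (15.5% higher and 19.8% lower in Jowoon). At 60 DAH 1 member had an unadjusted p under 0.05 in the authors' edgeR test. The members' counts were thus near or under the share of all genes called in either direction. The median log2 fold change of the members was -1.13, 0.38 and 0.998 at the 3 stages, beside -0.05, -0.03 and -0.15 over all embryo genes. The gene called at 45 DAH was OS07G0213800, with log2 fold changes of 0.08, 1.74 (FDR 0.0301) and 0.14 at 30, 45 and 60 DAH.

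At 30 DAH, 5 of the 7 members had embryo log2 fold changes in a narrow range from -1.36 to -1.06, and none of the 5 was called (FDR 0.0771 to 0.216). They were OS07G0214300, OS07G0214600, OS07G0215500, OS07G0216600 and OS07G0216700. The other 2 members had 0.08 (OS07G0213800) and 1.92 (OS07G0214100). The 3 glutelin marker genes had -1.07, -1.09 and -1.08 in the same table, none of them called (FDR 0.324, 0.311 and 0.0503). Of the 3 embryo markers, the oleosin gene OS03G0699000 had -1.19 (FDR 0.00108), and the others had 0.03 and -0.41. The part of these markers in the members' values was not tested. At 45 and 60 DAH the range of the 5 genes opened. OS07G0214300 had 0.19 and -0.16, OS07G0214600 had 1.32 and -0.55, and OS07G0215500 had -0.06 and 1.25 at 45 and 60 DAH. OS07G0216600 had 0.38 and 1.11, and OS07G0216700 had -1.19 and 0.998. The glutelin marker genes lay between -0.86 and 0.54 at 45 DAH and between -0.42 and 0.67 at 60 DAH.

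**Figure D2:**
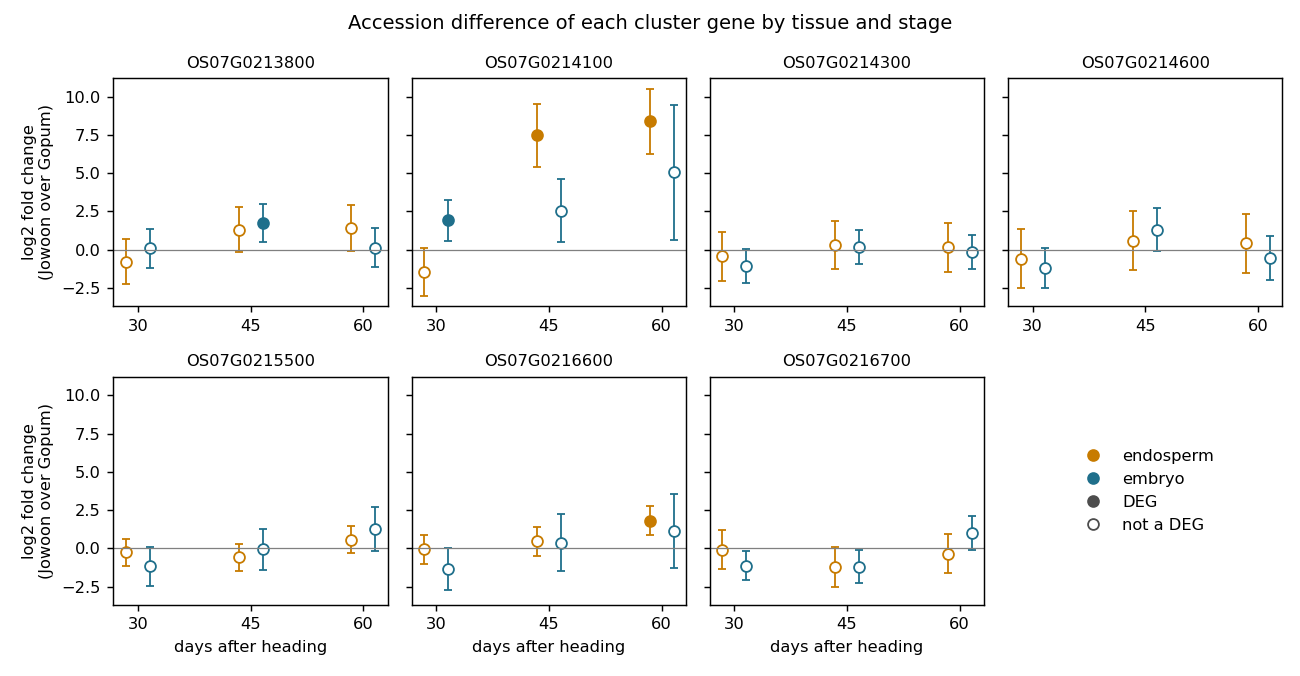
Log2 fold change of Jowoon over Gopum (y axis) at 30, 45 and 60 DAH (x axis) for each of the 7 genes, with endosperm in orange and embryo in blue; bars are 95% intervals from the implied SE, and filled points are DEGs. Of 42 values 5 are DEGs, all higher in Jowoon, and OS07G0214100 in the endosperm at 45 and 60 DAH (7.47 and 8.39) stands far above the others.

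Whether the accession difference of a gene changed with stage was tested by setting the change in log2 fold change against the implied SEs of both stages, with p-values adjusted over all genes and stage pairs of the tissue. In the endosperm OS07G0214100 changed by 8.91 ± 1.32 (SE) between 30 and 45 DAH (adjusted p = 3.29e-08) and by 9.83 ± 1.35 between 30 and 60 DAH (adjusted p = 9.82e-10). Between 45 and 60 DAH its difference was 0.91 ± 1.51 (adjusted p = 0.999). Of the 7 members 1 was called for 45 minus 30 DAH, against 0.605% of all genes, 1 for 60 minus 30 DAH, against 0.434%, and 0 for 60 minus 45 DAH, against 0.142%, where 1 had an unadjusted p under 0.05. Both calls rest on the endosperm table of 30 DAH that stood apart. With that table left out only 60 minus 45 DAH remains, where 0 members were called in either case. Leaving it out therefore cannot show whether the calls hold.

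In the embryo, OS07G0214600 was called for 45 minus 30 DAH, with a difference of 2.50 ± 0.97 (adjusted p = 0.0458). OS07G0216700 was called for 60 minus 30 DAH, at 2.13 ± 0.74 (adjusted p = 0.0216), and for 60 minus 45 DAH, at 2.19 ± 0.78 (adjusted p = 0.0259). Its log2 fold changes at 30, 45 and 60 DAH were -1.13, -1.19 and 0.998, and none of the 3 was a DEG. The 1 of 7 members called in each stage pair stood beside 9.26%, 28.9% and 31.6% of all embryo genes, so changes of this kind were common in the tissue.

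The same test between the tissues at 1 stage, endosperm minus embryo, gave 2 calls among 21 values, both for OS07G0214100. At 30 DAH its difference was -3.36 ± 1.05 (adjusted p = 0.0490) and at 45 DAH 4.94 ± 1.48 (adjusted p = 0.0369). At 60 DAH it was 3.34 ± 2.51 (adjusted p = 0.65). The share of all genes called was 3.84%, 1.26% and 2.98% at 30, 45 and 60 DAH, and 0 of 7 members had an unadjusted p under 0.05 at 60 DAH. The value at 30 DAH rests on the endosperm table that stood apart. Neither call held with the larger implied SE of the gene over the stages. The test takes the tissues as independent. The methods of the study describe embryos and endosperms from the same panicles, and such a pairing could not be used here.

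The cluster was then read beside its neighbors in the order of gene IDs. From OS07G0213000 to OS07G0217500 the tables held 13 genes, the 7 members and 6 others. Of these others, 2 were DEGs in the same direction in at least 2 tables, and both lie among or next to the members. OS07G0213600, which precedes OS07G0213800, was found in the endosperm tables only, with a mean log2 CPM of 8.52. Its log2 fold changes there were -1.06, 7.54 and 7.47 at 30, 45 and 60 DAH, beside -1.44, 7.47 and 8.39 for OS07G0214100. The FDR was 1 at 30 DAH, 5.19e-20 at 45 DAH and 1.99e-20 at 60 DAH.

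OS07G0215200 lies between OS07G0214600 and OS07G0215500 and had few reads, with a mean log2 CPM of 2.03 in the endosperm and 3.85 in the embryo. In the endosperm its log2 fold changes were -0.41, 7.73 and 8.16 at 30, 45 and 60 DAH, and in the embryo they were 7.42, 10.01 and 9.50. It was a DEG in all tables except the endosperm at 30 DAH (FDR at most 6.48e-06). In the order of IDs, the 3 genes that were far higher in Jowoon in the endosperm at 45 and 60 DAH thus stood beside members with endosperm log2 fold changes of at most 1.79. Of the 4 remaining neighbors, 1 was called in 1 table, OS07G0213500 in the embryo at 60 DAH, with a log2 fold change of 1.95 (FDR 3.03e-05). The sources used here give no annotation for OS07G0213500, OS07G0213600 or OS07G0215200.

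**Figure D3:**
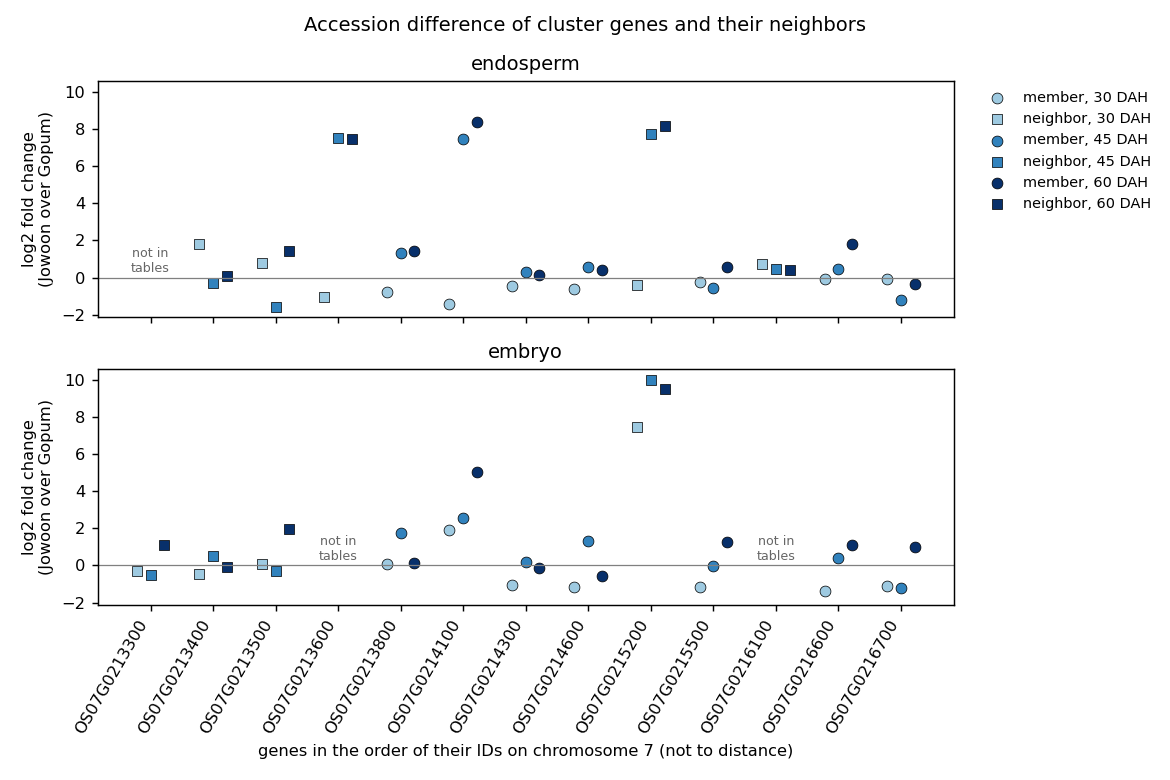
Log2 fold change of Jowoon over Gopum (y axis) for the 13 genes in ID order (x axis, not to distance), with endosperm above and embryo below; circles are members, squares are neighbors, and darker color marks a later stage. In the endosperm OS07G0213600, OS07G0214100 and OS07G0215200 lie between 7.47 and 8.39 at 45 and 60 DAH, and at or below -0.41 at 30 DAH.

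The genes whose pattern lay nearest to the median of the cluster were sought over the 6 comparisons, by Euclidean distance of the log2 fold changes, among 6886 genes whose mean log2 CPM was 3 or more in both tissues. They were OS06G0701400 at a distance of 0.47, OS06G0607100 at 0.58 and OS09G0434200 at 0.60. The members themselves lay farther from their own median. The 3 genes were picked as the nearest of 6886 and the members were not, so this order does not show how alike the members are. OS07G0214100 and OS07G0216600, at 1.29 and 1.37 in the embryo, would not have passed the minimum of 3. OS07G0215500 was nearest, at a distance of 1.16, OS07G0216700 was at 2.48, and OS07G0214100 was at 11.91.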

How the data were processed

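Per the methods of the study, the authors used Trimmomatic for trimming, HISAT2 for alignment to the IRGSP rice genome, featureCounts for counting, the trimmed mean of M-values for scaling CPM, and edgeR to set Jowoon against Gopum within a stage. The deposited log2 values are fold changes and mean CPM, and the deposited p-value and FDR columns come from that test. These columns hold the authors' own comparisons and are used because the members are described by them; no values per library were analysed here. The FDR values were checked to be Benjamini-Hochberg adjusted over a whole table, and the mean log2 CPM of a gene did not differ among the 3 tables of its tissue. The sign was settled from 4 genes that the study places by quantitative PCR, OsAAO3, AO, OsACO3 and OsHsp17.9B. Their values were read in the embryo at 30 or 45 DAH, where a positive value is thus higher in Jowoon. The same sign was taken for the other comparisons without such a check. In the endosperm, 56 of the 58 genes above kept the embryo direction, 2-fold or more, at 45 and 60 DAH. At 30 DAH 4 did. The authors' gene filter and test function are not given in the sources used here. The labels give 2 libraries per group, whereas the methods speak of more replicates, and the number behind each comparison could not be read from the tables. Nothing says whether the libraries came from separate plants, so the p-values may cover technical spread only.

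Implied SEs were computed where the normal quantile of p was at least 0.5, which held for 31 of 42 member values, and otherwise taken as the median over the tissue's tables. The code of the difference test was run on simulated data with known SEs, which leaves the implied SEs themselves untested. Named genes were all members, neighbors by ID that were DEGs in at least 2 tables in the same direction, and the 3 nearest patterns. Genes listed as endosperm or embryo markers and the genes that settled the sign were named too. OS07G0213500 was named after its values were seen. The members and lists were chosen with earlier results of these data known. Python 3.11.15, NumPy 2.4.6, pandas 2.3.3, SciPy 1.17.1 and matplotlib 3.10.9 were used.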

Additional observations from a re-analysis of the deposited data

Results flagged for a closer look

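In a test of the change itself, these accession differences varied between 2 stages or between the tissues. OS07G0214100 in the endosperm changed by 8.91 on the log2 scale between 30 and 45 DAH and by 9.83 between 30 and 60 DAH. At the same stages the neighbor OS07G0213600 changed by 8.60 and 8.53, and OS07G0215200 by 8.14 and 8.57. All of these use the endosperm table of 30 DAH, in which 0 of 14049 genes were DEGs, and its part in the changes was not tested.

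In the embryo, OS07G0214600 changed by 2.50 between 30 and 45 DAH, and OS07G0216700 by 2.13 between 30 and 60 DAH and by 2.19 between 45 and 60 DAH. Between the tissues, OS07G0214100 differed by -3.36 at 30 DAH and by 4.94 at 45 DAH, endosperm minus embryo. None of these embryo and tissue differences was called at an adjusted p of at most 0.01. Neither tissue difference was called with the larger implied SE, and the one at 30 DAH uses the endosperm table that stood apart.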

How the results depend on the processing

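Across the alternatives, 39 counts of calls were unchanged, 11 were lower and 1 was higher. The 39 include the endosperm at 30 DAH and the embryo at 60 DAH, where 0 members were called to begin with. Stricter thresholds could only return 0 there, so the 39 is not a measure of robustness. With a fold change of at least 4, and again with an FDR of at most 0.01, the members called fell to 1 in the endosperm at 60 DAH (OS07G0214100 alone), to 0 in the embryo at 30 DAH and to 0 in the embryo at 45 DAH. With an adjusted p of at most 0.01, the stage differences called in the embryo numbered 0, against 3 (4 with centering within bins of mean log2 CPM, 2 with the larger implied SE), and the tissue differences 0, against 2. The tissue differences also numbered 0 with the larger implied SE, and 1 with that centering. The same centering turned 4 values near 0, OS07G0216600 (0.044) and OS07G0216700 (0.025) in the endosperm at 30 DAH, OS07G0214300 in the endosperm at 45 DAH (-0.0061) and OS07G0215500 in the embryo at 45 DAH (0.012). Of the remaining single values 284 kept their sign and call, and 6 lost their call under the stricter thresholds. Only taking off a median changes a log2 fold change, so under the other alternatives the sign was fixed in advance. Of the 42 values 5 were called, and the rest had no call to lose. The 284 is therefore not a measure of robustness. The cause of the changes was not tested. The 2 alternatives that leave out 30 DAH were chosen after seeing the data. With them the members called numbered 0 for the endosperm, 60 minus 45 DAH, and 1 for the tissues. These counts were the same with 30 DAH kept. Both endosperm stage calls need 30 DAH, so leaving it out does not test them.

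No paired analysis was possible because the tables hold no values per library. For the same reason another scaling, DESeq2 and leaving out single libraries were not run. Over all genes the embryo at 60 DAH had a median log2 fold change of -0.15, and taking the table's median off changed no count.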
